A study of Homo sapiens with 6 samples.

Results

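Hypoxia-inducible factors (HIFs) are the transcription factors through which cells respond to low oxygen. Each is a pair of an alpha subunit, encoded by HIF1A, EPAS1 (HIF-2α) or HIF3A, and a beta subunit, encoded by ARNT or ARNT2. When oxygen is available, the prolyl hydroxylases EGLN1 (PHD2), EGLN2 (PHD1) and EGLN3 (PHD3) modify the alpha subunits, VHL recognises the modified protein, and the ubiquitin ligase it belongs to marks it for destruction. The asparaginyl hydroxylase HIF1AN (FIH) separately blocks the binding of coactivators to the alpha subunits. Much of this control acts on protein, whereas the values below are RNA levels. The 10 genes of this oxygen-sensing system were taken by symbol from the 44591 genes listed in the deposited files, and all 10 were found.

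The RNA came from A2780, a human ovarian cancer cell line with the genotype given as WT, grown in DMEM with serum. In 1 group, 3 cultures received recombinant human CRMP2 (r-CRMP2) in the medium at 40 ng/ml for 48 h, and the other group was 3 untreated cultures labelled 48 h. CRMP2 is a microtubule-associated protein encoded by DPYSL2, and the study asked which pathways it changes in ovarian cancer cells. All 6 libraries are thus of 1 cell line, and the labels name neither a vehicle in the untreated cultures nor an oxygen level.

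The deposited counts summed to between 21888530 and 25711353 per library. The study states fewer reads in all than these counts add up to, and the source of that difference was not tested. The counts came from polyadenylated RNA, and edgeR's quasi-likelihood model was fitted to them with TMM factors, which adjust library totals for differences in composition. Levels are CPM, the counts relative to these adjusted totals, a fold change is r-CRMP2 over untreated on the log2 scale, SE is its standard error from log2 CPM, and a call is an adjusted p below 0.05. The labels do not say whether the cultures were independent, so p-values measure the spread between these libraries, which may be technical. r-CRMP2 replicate 3 had a count on 22438 genes, and the other 5 libraries on 25152 to 26302. Of 10 ovarian epithelial cancer markers, WT1 and CDH1 were under 1 TPM (a level per gene length and library total) in every library and PAX8 lay between 1.40 and 2.65 TPM, while KRT7, KRT8, KRT18 and MSLN were abundant. Their summed TPM lay between 4479 and 4741 in untreated and between 3791 and 4118 in r-CRMP2 libraries, and of the 8 tested 3 were called higher and 2 lower. The summed TPM of 11 fibroblast markers lay between 279.8 and 319.6 in untreated and between 199.6 and 214 in r-CRMP2 libraries, with FAP under 1 TPM in every library. COL1A1 made up most of that sum, and the list did not move one way: of 10 tested, 4 were called higher (LUM, PDGFRA, COL1A2 and THY1) and 3 lower (COL1A1, PDGFRB and POSTN). TPM does not carry the TMM scaling and the calls do, so the sums and the calls can differ in direction. KRT18 fell in mean TPM from 1986 to 1816 and yet was called higher, as were CLDN4 and THY1 with a lower mean TPM. The part of these marker levels in the results below was not tested. DPYSL2 itself was 82.7 ± 2.97 CPM (SD, n = 3) in untreated and 130.4 ± 7.01 CPM (SD, n = 3) in r-CRMP2 libraries, a log2 fold change of 0.66 (adjusted p = 5.48e-08, edgeR).

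Of the 10 genes, 9 passed the filter on low counts, and all 9 were called: 5 were higher and 4 lower in the r-CRMP2 group. The background was large, because 58.2% of the 16222 genes tested were called, 28.2% higher and 30.1% lower. With an added log2 fold change threshold of 1, which 14.0% of all genes passed, 2 of the 9 genes passed, EPAS1 and EGLN3, both higher; 5.12% of all genes were higher and 8.86% lower by this rule. The smallest count among the 9 genes in any library was 460, so none passed the filter through 1 group alone. In 8 of the 9 genes the groups did not overlap, as in 64.2% of all genes tested, with 30.9% lying higher and 33.3% lower in the r-CRMP2 libraries. In RNA from whole cultures, a change in the number of expressing cells and a change in RNA per cell cannot be told apart.

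**Figure D1:**
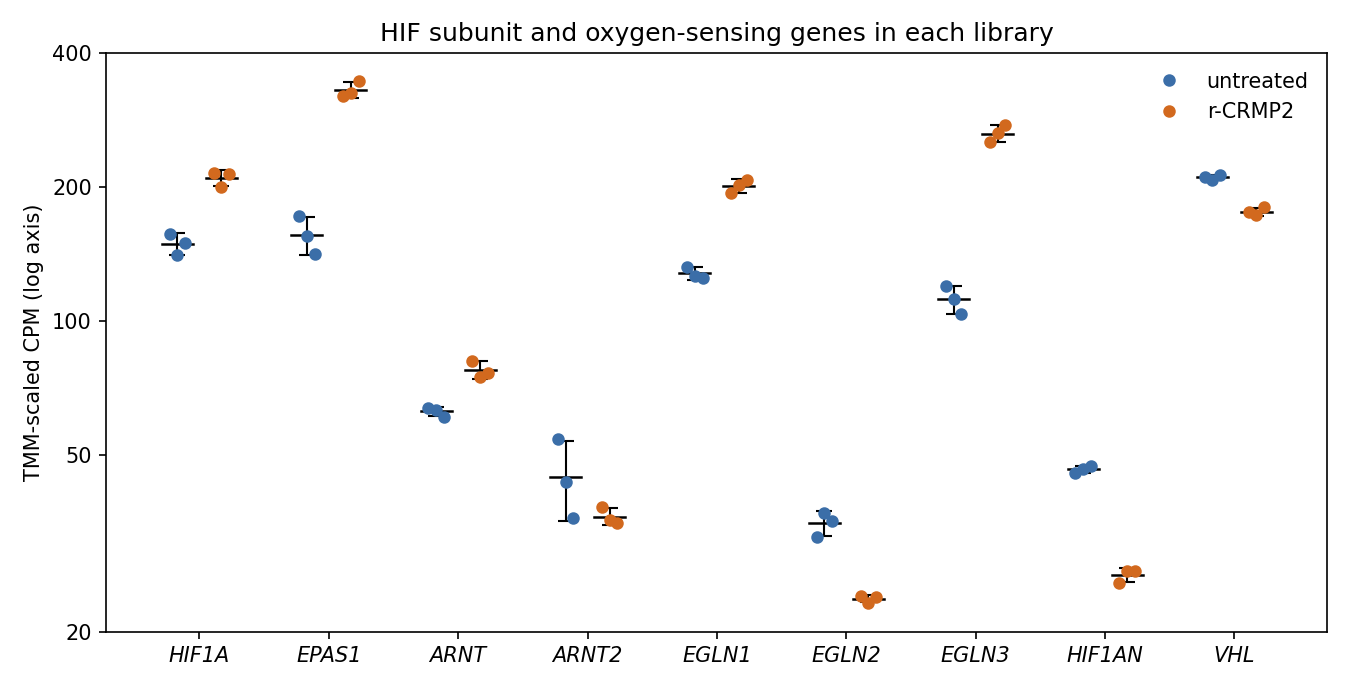
TMM-scaled CPM (log axis) of the 9 genes tested, in 3 untreated (blue) and 3 r-CRMP2 (orange) libraries; each point is a library, the line is the mean and the bar the SD. HIF1A, EPAS1, ARNT, EGLN1 and EGLN3 lie higher and EGLN2, HIF1AN and VHL lower in every r-CRMP2 library, while the groups overlap for ARNT2.

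Both expressed alpha subunit genes rose, EPAS1 more than HIF1A. HIF1A (chromosome 14, 62162119 to 62214977, plus strand, hg19 as deposited), which encodes the alpha subunit of HIF-1, was 157, 140.5 and 149.98 CPM in untreated replicates 1, 2 and 3. It was 215, 199.7 and 214 CPM in r-CRMP2 replicates 1, 2 and 3. By CPM, the lowest treated library lay above the highest untreated one. By TPM, which does not carry the TMM scaling, the groups overlapped. HIF1A was 78.9 to 85.7 TPM in untreated and 83.9 to 99.2 TPM in r-CRMP2 libraries. The mean went from 149 ± 8.34 to 209.7 ± 8.67 CPM (SD, n = 3), a log2 fold change of 0.49 (SE 0.06 between replicates and an edgeR adjusted p = 2.13e-06). In size this change exceeded those of 59.96% of the genes tested, which places HIF1A near the middle of this comparison. Scaled by library size only, it was 0.18 (edgeR adjusted p = 0.0173).

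The study reports RT-qPCR of this pathway after CRMP2 knockdown in SKOV3 cells and overexpression in A2780 cells. For r-CRMP2 it reports western blots, in which HIF-1α protein rose with dose. Its RT-qPCR thus does not check the r-CRMP2 values above. The HIF1A primer pair shows where in the gene that assay reads. Both primers lie in exon 2 at chr14:61720392-61720515 (GRCh38), span 124 bases, and are found in 6 (in coding sequence in 4) of the 12 HIF1A transcripts of GENCODE release 29, so a gene-level count also covers transcripts that the pair does not. The pair is printed in lower case, with no part marked.
Forward: gaacgtcgaaaagaaaagtctcg
Reverse: ccttatcaagatgcgaactcaca

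In the files, 3 genes overlap HIF1A on the opposite strand, and whether the counting used strand is not given in the sources used here. HIF1A-AS2, an antisense RNA that shares 1221 bases of span with HIF1A, had 546, 423 and 453 counts in the untreated and 572, 578 and 642 counts in the r-CRMP2 libraries. This was a log2 fold change of 0.65 (adjusted p = 3.48e-06, edgeR). LOC105370526 had 23, 29 and 24 counts against 46, 38 and 82, a log2 fold change of 1.42, and HIF1A-AS1 had at most 2 counts. Without strand, reads of HIF1A and its antisense partners cannot be told apart. HIF1A itself had between 3447 and 4916 counts per library, several times those of HIF1A-AS2.

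EPAS1 (chromosome 2, 46524541 to 46613842, plus strand), the alpha subunit of HIF-2, was 172, 155 and 141 CPM in untreated replicates 1, 2 and 3. In r-CRMP2 replicates 1, 2 and 3 it was 321, 326 and 345 CPM. Every treated library was above every untreated library, and the untreated libraries differed more among themselves than the treated ones. The mean went from 156 ± 15.4 to 331 ± 13.0 CPM (SD, n = 3), a log2 fold change of 1.08 (SE 0.09 between replicates and an edgeR adjusted p = 2.68e-10), larger in size than 87.6% of genes tested.

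HIF3A (chromosome 19, 46800303 to 46846690, plus strand), whose products include inhibitory forms, was close to undetected. It had 3, 2 and 3 counts in the untreated and 2, 4 and 0 counts in the r-CRMP2 libraries. A count of 0 allows up to 3 counts, which is 0.131 CPM in that library, so no change was detectable at this depth and no fold change is given. It did not pass the low-count filter.

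The balance of the alpha subunits was compared within each library, with deposited TPM, because TPM is divided by gene length and a share within a library does not move with the scaling between libraries. The HIF1A share of alpha subunit transcripts was 51.8, 51.6 and 55.5% in untreated replicates 1, 2 and 3 and 44.1, 41.9 and 42.1% in r-CRMP2 replicates 1, 2 and 3. EPAS1 made up nearly all of the rest, and by TPM was the less abundant alpha transcript in each untreated and the more abundant in each r-CRMP2 library. The untreated order rests on the division by gene length. Before it, EPAS1 had more counts than HIF1A in untreated replicates 1 (4784 against 4369) and 2 (3806 against 3447). In untreated replicate 3 it had fewer (3862 against 4103). The HIF1A share differed by -10.2 percentage points (standard error 1.47, exact two-sided permutation p = 0.1, the smallest that 3 against 3 libraries allow). With counts not divided by length the difference was -10.1 percentage points. The ratio of EPAS1 to HIF1A was 0.891 ± 0.0779 (SD, n = 3) in untreated and 1.34 ± 0.0661 (SD, n = 3) in r-CRMP2 libraries.

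The beta subunits, which pair with all alpha subunits and with other factors of the same family, moved less. ARNT (chromosome 1, 150782181 to 150849244, minus strand) was 63.7, 63.0 and 61.0 CPM in untreated replicates 1, 2 and 3 and 81.4, 74.6 and 76.5 CPM in r-CRMP2 replicates 1, 2 and 3. The groups did not overlap, and the log2 fold change was 0.31 (SE 0.04 between replicates and an edgeR adjusted p = 0.00039). This rise depended on the scaling: with library size alone it was -0.0004 (adjusted p = 0.996, edgeR).

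ARNT2 (chromosome 15, 80696692 to 80890278, plus strand), the close relative of ARNT with a narrower range of tissues, was 54.1, 43.4 and 36.1 CPM in untreated replicates 1, 2 and 3. It was 38.1, 35.7 and 35.1 CPM in r-CRMP2 replicates 1, 2 and 3. The groups overlapped, since untreated replicate 3 lay below r-CRMP2 replicate 1. ARNT2 passed the test with a log2 fold change of -0.30 (SE 0.17 between replicates and an edgeR adjusted p = 0.0226), yet without untreated replicate 1 the value was -0.13 and the adjusted p 0.244. Leaving out r-CRMP2 replicate 2 or 3 also ended the call, with a log2 fold change of -0.27 each and adjusted p of 0.053 and 0.0845 (edgeR).

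Within libraries, ARNT2 made up 39.0, 34.2 and 30.9% of beta subunit TPM in the untreated and 26.1, 26.5 and 25.7% in the r-CRMP2 libraries. All treated values were below all untreated values, a difference of -8.59 percentage points (standard error 2.38, exact permutation p = 0.1). The summed alpha TPM was 3.30 ± 0.127 times the summed beta TPM in untreated and 5.27 ± 0.280 times in r-CRMP2 libraries (SD, n = 3).

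The prolyl hydroxylases, close relatives that act on the same alpha subunits, did not move together: EGLN1 and EGLN3 rose and EGLN2 fell. EGLN1 (chromosome 1, 231499497 to 231560790, minus strand), known as the main oxygen sensor of the family, was 132, 126 and 125 CPM in untreated replicates 1, 2 and 3 and 194, 202 and 208 CPM in r-CRMP2 replicates 1, 2 and 3. The log2 fold change was 0.65 (SE 0.04 between replicates and an edgeR adjusted p = 2.93e-08). All treated libraries were above all untreated ones. The value was 0.34 with library size alone.

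EGLN3 (chromosome 14, 34393421 to 34420284, minus strand), known as a target gene of HIF, had the largest change of the 9 genes. It was 119.9, 112 and 104 CPM in untreated replicates 1, 2 and 3 and 252, 264 and 275 CPM in r-CRMP2 replicates 1, 2 and 3. Each treated library was more than 100 CPM above each untreated one. The mean went from 112 ± 8.12 to 264 ± 11.4 CPM (SD, n = 3), a log2 fold change of 1.24 (SE 0.07 between replicates and an edgeR adjusted p = 1.91e-11), larger in size than 90.6% of genes tested.

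EGLN2 (chromosome 19, 41305048 to 41314346, plus strand), a nuclear member of the family, was 32.6, 37.1 and 35.5 CPM in untreated replicates 1, 2 and 3. It was 24.1, 23.3 and 24.0 CPM in r-CRMP2 replicates 1, 2 and 3, below every untreated library. The log2 fold change was -0.56 (SE 0.06 between replicates and an edgeR adjusted p = 5.72e-06). EGLN2 is uncertain, because the readthrough transcript RAB4B-EGLN2 covers all 9299 bases of its span on the same strand. The files list 938, 896 and 974 counts on it in the untreated and 534, 510 and 594 in the r-CRMP2 libraries, against 907, 910 and 970 and 514, 460 and 551 on EGLN2. RAB4B-EGLN2 moved the same way, with a log2 fold change of -0.47 (adjusted p = 2.93e-05, edgeR). EGLN1 has a pseudogene, EGLN1P1, which had at most 37 counts in a library.

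The first 250 bases upstream of the RefSeq transcription start (GRCh38.p14) are shown for the 3 prolyl hydroxylase genes, which did not move together. HIF dimers are known to bind ACGTG and GCGTG, which were searched on both strands and are in capitals. The windows lie at chr1:231422288-231422537 on the minus strand for EGLN1, at chr19:40798941-40799190 on the plus strand for EGLN2 (the first of 2 starts) and at chr14:33951075-33951324 on the minus strand for EGLN3.
EGLN1: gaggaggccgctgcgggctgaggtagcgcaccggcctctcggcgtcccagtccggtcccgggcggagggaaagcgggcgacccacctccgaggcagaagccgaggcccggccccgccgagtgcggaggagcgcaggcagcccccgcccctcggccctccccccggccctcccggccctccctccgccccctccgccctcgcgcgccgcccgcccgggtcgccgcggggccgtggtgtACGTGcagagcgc
EGLN2: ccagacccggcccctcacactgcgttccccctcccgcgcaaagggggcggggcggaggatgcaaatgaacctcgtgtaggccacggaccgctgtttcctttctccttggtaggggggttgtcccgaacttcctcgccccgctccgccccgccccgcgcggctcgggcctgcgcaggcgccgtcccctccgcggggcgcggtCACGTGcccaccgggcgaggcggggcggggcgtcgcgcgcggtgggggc
EGLN3: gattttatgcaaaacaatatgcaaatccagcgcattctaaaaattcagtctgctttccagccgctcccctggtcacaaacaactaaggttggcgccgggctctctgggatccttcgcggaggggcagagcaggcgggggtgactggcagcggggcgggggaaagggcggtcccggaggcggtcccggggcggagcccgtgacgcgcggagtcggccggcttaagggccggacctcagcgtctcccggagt

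The EGLN1 window holds ACGTG from 13 to 9 bases before the start. In EGLN2 a match on each strand overlaps the other in 1 palindrome, 49 to 44 bases before the start, and the EGLN3 window holds neither sequence. Among the first windows of the 8 members that have one, 5 hold ACGTG or GCGTG: HIF1A, EPAS1, HIF3A, EGLN1 and EGLN2. HIF1AN, ARNT and EGLN3 hold neither. ARNT2 and VHL had no window. The later windows of HIF1A, HIF3A and EGLN2 hold neither sequence. Of all 35116 windows of this length, 43.2% hold either sequence and 18.5% hold ACGTG. These shares count every listed start of a gene and not only the first, so they are not a like measure for the 5 of 8. Genes that rose and genes that fell are found both among those with a match and among those without. A match is a description of letters and not of binding.

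EGLN3 took a larger share of the prolyl hydroxylase transcripts in every r-CRMP2 library than in any untreated one. It made up 57.6, 55.1 and 53.9% of their summed TPM in untreated replicates 1, 2 and 3 and 71.2, 71.7 and 71.9% in r-CRMP2 replicates 1, 2 and 3. The 3 treated libraries lay within 1 percentage point of each other, and the difference was 16.1 percentage points (standard error 1.10, exact permutation p = 0.1). The EGLN2 share was 20.1 ± 1.79% in untreated and 7.44 ± 0.329% in r-CRMP2 libraries, and the EGLN1 share 24.4 ± 0.504% and 21.0 ± 0.111% (SD, n = 3). Although EGLN1 rose, its share was thus lower in the treated libraries. Counts listed on the readthrough RAB4B-EGLN2, about as many as those on EGLN2, are not in these shares or in the ratio below. How far they would move these values was not tested.

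The summed prolyl hydroxylase TPM was compared with the summed TPM of the alpha subunits, which are their substrates. The log2 ratio was 0.148, 0.267 and 0.201 in untreated replicates 1, 2 and 3 and 0.229, 0.317 and 0.282 in r-CRMP2 replicates 1, 2 and 3. The groups overlapped, and the difference of 0.07 (standard error 0.04, exact permutation p = 0.2) did not exceed the spread between libraries by this test.

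**Figure D2:**
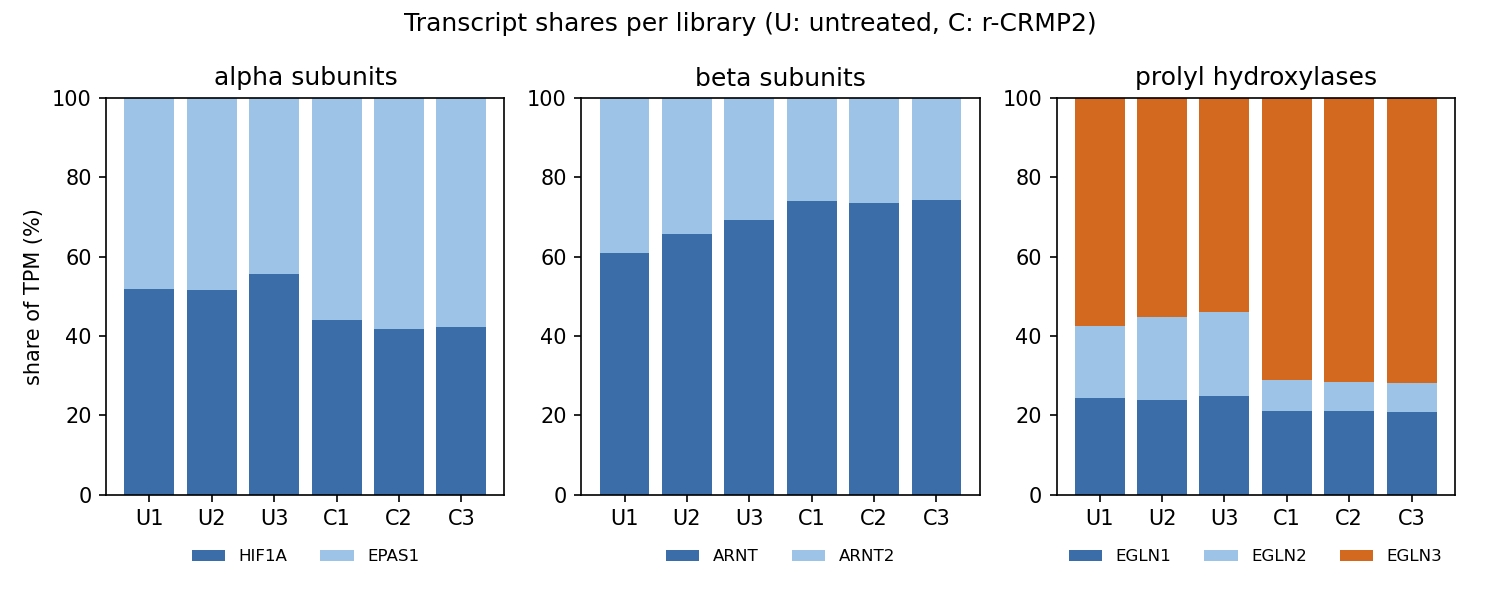
Share of summed TPM (%, from 0 to 100) of each gene within the alpha subunits HIF1A and EPAS1, the beta subunits and the prolyl hydroxylases, 1 bar for each untreated (U1 to U3) and r-CRMP2 (C1 to C3) library. EGLN3 takes over 70% of the prolyl hydroxylase TPM in each r-CRMP2 library and under 60% in each untreated one. EGLN2 is shown without the counts listed on RAB4B-EGLN2.

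HIF1AN and VHL, which limit HIF activity and HIF alpha protein, both fell. HIF1AN (chromosome 10, 102295641 to 102313681, plus strand) was 45.5, 46.6 and 47.2 CPM in untreated replicates 1, 2 and 3. It was 25.7, 27.3 and 27.4 CPM in r-CRMP2 replicates 1, 2 and 3. Replicates were close in both groups, and the log2 fold change was -0.79 (SE 0.03 between replicates and an edgeR adjusted p = 2.32e-08). Within libraries, the TPM of HIF1A was 5.06 ± 0.348 times that of HIF1AN in untreated and 12.3 ± 0.848 times in r-CRMP2 libraries (SD, n = 3).

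VHL (chromosome 3, 10183319 to 10195354, plus strand) was 211, 207 and 213 CPM in untreated replicates 1, 2 and 3 and 175, 173 and 180.04 CPM in r-CRMP2 replicates 1, 2 and 3. The groups did not overlap, and the fall was small, a log2 fold change of -0.26 (SE 0.02 between replicates and an edgeR adjusted p = 0.000949). It was larger in size than 35.6% of genes tested, and was -0.57 with library size alone. The summed alpha TPM was 1.39 ± 0.0903 times the TPM of VHL in untreated and 2.89 ± 0.0307 times in r-CRMP2 libraries (SD, n = 3).

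Levels were compared between genes by TPM. In the untreated libraries the order of mean TPM was VHL (112), EGLN3 (100.04), HIF1A (82.7), EPAS1 (73.6), EGLN1 (43.9), EGLN2 (36.1), ARNT (30.9), ARNT2 (16.5), HIF1AN (16.4) and HIF3A (0.0379). Neighbours in this order did not overlap except HIF1A with EPAS1 and ARNT2 with HIF1AN. HIF1A was above EPAS1 in 3 of 3 libraries, while ARNT2 was above HIF1AN in 1 of 3. In the r-CRMP2 libraries EGLN3 (188) led, followed by EPAS1 (124), HIF1A (92.9), VHL (75.1), EGLN1 (55.1), ARNT (30.5), EGLN2 (19.6), ARNT2 (10.8), HIF1AN (7.54) and HIF3A (0.0294). No neighbours overlapped there. VHL thus went from the first to the fourth place. The place of EGLN2 leaves out the counts listed on RAB4B-EGLN2.

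**Figure D3:**
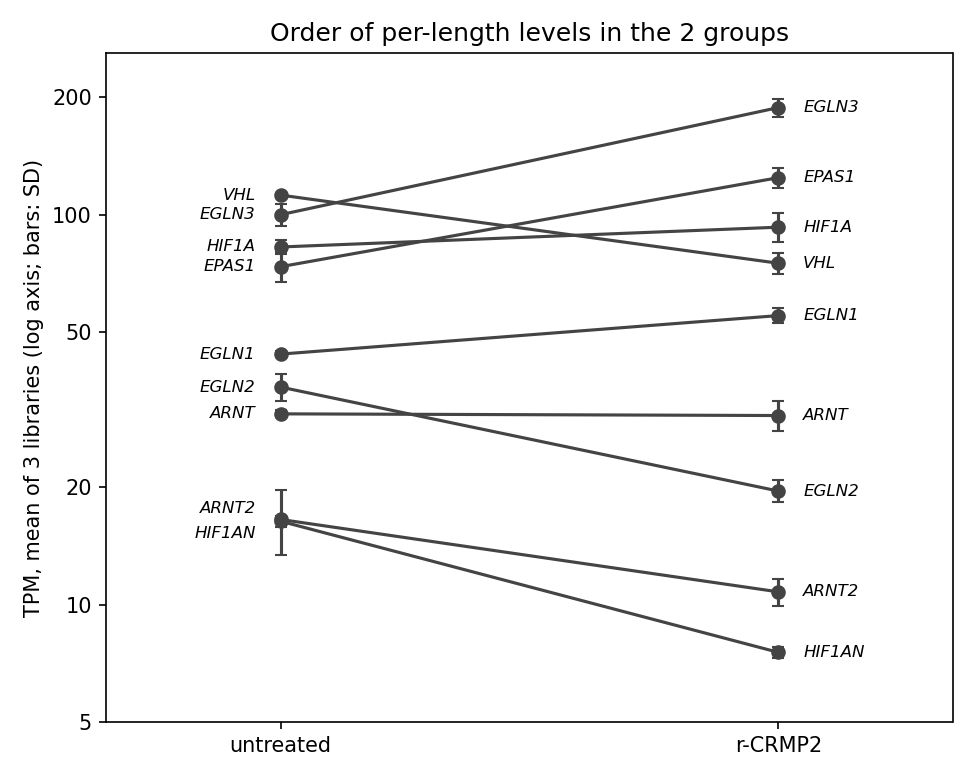
Mean deposited TPM of the 9 genes tested (log axis, bars SD over 3 libraries) in the untreated and r-CRMP2 groups, with a line joining the means of a gene. TPM does not carry the TMM scaling, so the order within a group is to be read and not the slope; VHL is highest on the left and EGLN3 on the right.

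The scaling moved every fold change by nearly the same amount. Across all genes the median log2 fold change was -0.03 under TMM scaling but -0.34 when only library size was used, where 13.4% of genes were called higher and 52.1% lower. With library size alone the fold changes were 0.77 for EPAS1, 0.93 for EGLN3, -0.60 for ARNT2, -0.87 for EGLN2 and -1.10 for HIF1AN. EPAS1 and EGLN3 were then below the fold threshold of 1, and HIF1AN was past -1. Directions of 8 of the 9 genes were the same under TMM, RLE, upper quartile scaling and library size alone, and ARNT was the exception.

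**Figure D4:**
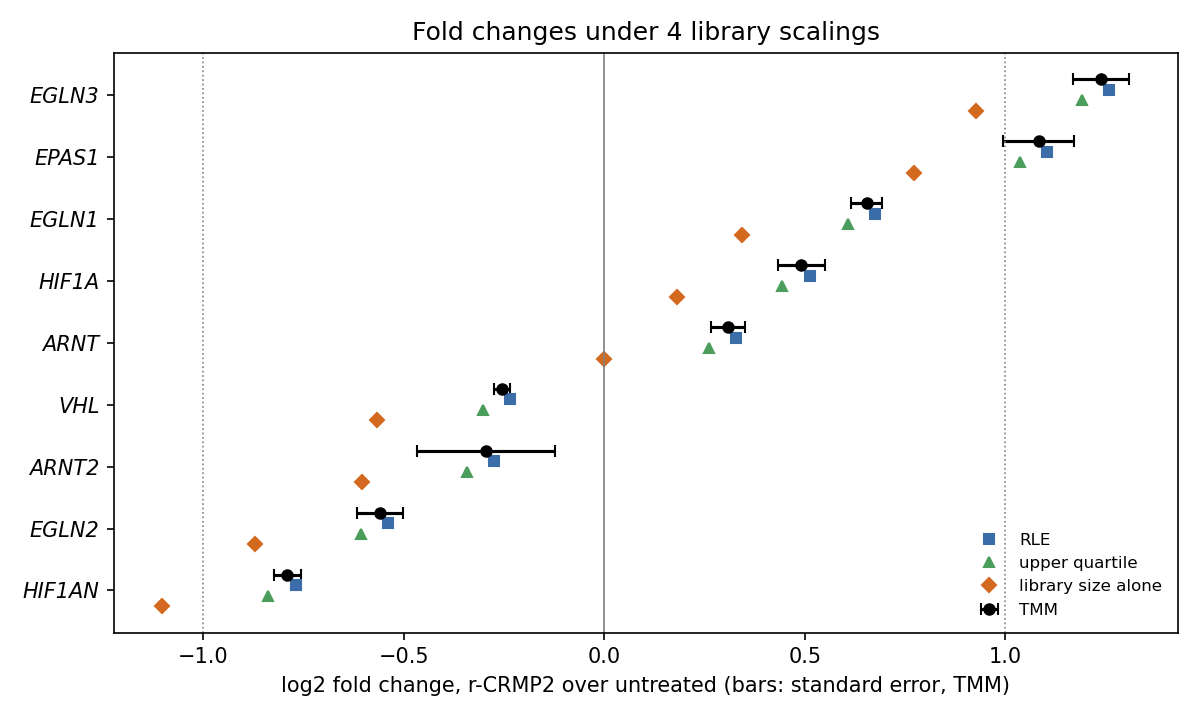
Log2 fold change, r-CRMP2 over untreated, of the 9 genes tested under 4 library scalings (symbols); bars are standard errors under TMM and dotted lines mark 1 and -1. Library size alone lies lowest for each gene and brings ARNT to -0.0004.

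Genes that work with the members were described from lists written by hand. Of the other subunits and regulators of the VHL ubiquitin ligase, 7 were tested, and under TMM 1 was higher and 1 lower, against 28.2% and 30.1% of all genes. Scaled by library size only, 0 were higher and 5 lower. ELOB, which joins VHL to the ligase, had a log2 fold change of 0.23 (adjusted p = 0.00635, edgeR), and -0.09 with library size alone. The scaffold CUL2 fell by 0.31 on the log2 scale (adjusted p = 0.00636, edgeR). The median of the 7 was 0.08 and that of all genes -0.03.

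Of 20 other factors that act on the stability of HIF alpha proteins, 9 were higher and 5 lower, against 28.2% and 30.1% of all genes, with a median log2 fold change of 0.12. The number lower was 10 with library size alone. LIMD1, a scaffold that brings prolyl hydroxylases and VHL together, rose by 1.14, SIAH2, a ubiquitin ligase for prolyl hydroxylases, by 0.98, and WSB1, a ubiquitin ligase adaptor for VHL, by 0.56. RWDD3, an enhancer of sumoylation, was lower with -1.03, WDR83 with -0.49 and the chaperone HSP90AA1 with -0.48. RWDD3 was low, at 3.73 ± 0.302 CPM in untreated libraries (SD, n = 3). These genes are known to act in opposite directions on HIF alpha, and they moved in both.

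Of 15 coactivators and competitors tested, 5 were higher and 4 lower, with a median of 0.10. The 60.0% called is close to the 58.2% of all genes, and 8 were lower with library size alone. CITED2, a known HIF target gene whose protein competes with HIF alpha for p300 and CBP, had the largest rise, from 125 ± 4.66 to 339 ± 43.8 CPM (SD, n = 3), a log2 fold change of 1.44 (adjusted p = 2.47e-11, edgeR). SIRT1, a deacetylase, rose by 0.66 and the coactivator NCOA3 by 0.59. The coactivators NCOA1, NCOA2 and EP300 were lower, with -0.85, -0.55 and -0.52.

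The PI3K-AKT-mTOR pathway, which is known to raise HIF1A translation and which the study examined upstream of HIF-1α, had shares of calls near those of all genes. Of 17 genes tested, 5 were higher and 6 lower, against 28.2% and 30.1% of all genes, with a median log2 fold change of -0.14. These counts became 3 and 12 with library size alone. The translation factor EIF4E and its inhibitor EIF4EBP1 rose by 0.62 and 0.73, and RHEB, the activator of mTORC1, by 0.65. The kinases RPS6KB1 and MTOR were lower with -0.57 and -0.56, and RPTOR, the mTORC1 scaffold, with -0.43. RNA levels do not show the phosphorylation through which this pathway acts.

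Among other factors of the bHLH-PAS family, to which the HIF subunits belong, 8 of 11 were tested, none was higher and 3 were lower, against 28.2% and 30.1% of all genes. The lower genes were 5 with library size alone. By unadjusted p 1 gene was higher, AHR, and by DESeq2 none (0). The 3 lower genes under TMM were AHRR, the repressor of the aryl hydrocarbon receptor (log2 fold change -0.73), the clock factor ARNTL2 (-0.43) and SIM2 (-0.33). ARNTL, the close relative of ARNTL2, did not pass the test, with a log2 fold change of 0.11 (adjusted p = 0.469, edgeR).

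A panel of 47 known HIF target genes was read beside the members, with 46 tested. Of these 44 were higher and none lower, against 28.2% and 30.1% of all genes, and 31 also passed the fold threshold, against 5.12%. At an unadjusted p below 0.05, and by DESeq2, 0 were lower. With library size alone 40 were higher and 2 lower. The study had chosen this pathway on these libraries and examined it further in other experiments, by western blots and metabolic flux. The panel was also written by hand with earlier results of these data known. Read in the same libraries, it is thus not independent evidence of the pathway's direction. Its median log2 fold change was 1.25, that of the 9 tested members 0.31 (the value of ARNT) and that of all genes -0.03. The 2 largest rises were in ANKRD37 (4.43) and ADM, a vasodilator peptide (3.70). AK4 and GYS1 did not pass the test, with -0.01 and 0.11. HIF1A, with 0.49, changed less than the median gene of the panel.

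**Figure D5:**
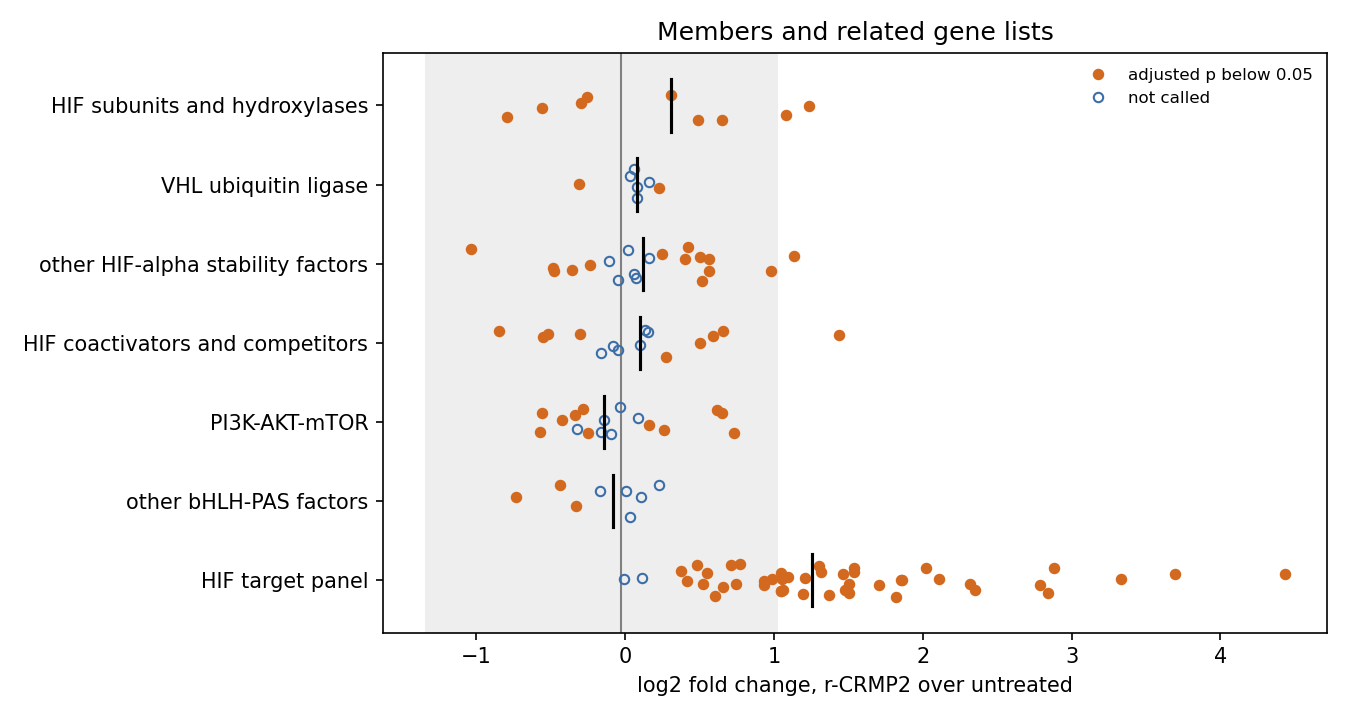
Log2 fold change, r-CRMP2 over untreated, of each tested gene of the members and of 6 related lists; filled points were called at an adjusted p below 0.05, black ticks are medians, and the grey band spans the 5th to 95th percentile of all genes tested (-1.34 to 1.02) with their median as a line. The HIF target panel has a median of 1.25, and the other lists have medians between -0.14 and 0.31.

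Profiles of log2 CPM over the 6 libraries, each centred on its untreated mean, were compared by their root mean square distance. The genes closest to HIF1A and to EGLN3 were taken among 10995 genes above a minimum mean CPM. For HIF1A these were SLC35E4, ZBTB5 and RBMS3, at distances of 0.0213, 0.0231 and 0.0237. For EGLN3 they were DNAJB2, GPC5 and MKNK2, at 0.0435, 0.0464 and 0.0470. Their log2 fold changes were 0.49, 0.47 and 0.51 for the HIF1A list and 1.23, 1.29 and 1.25 for the EGLN3 list. This distance largely follows the size of the change, so it is not evidence of shared regulation.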

How the data were processed

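Polyadenylated RNA of 6 A2780 cultures was sequenced. The authors deposited unnormalized read counts per gene and TPM values in 1 table per library. Recomputing the deposited TPM from counts and gene lengths gave a largest difference of 4.72e-06. The submitters' processing notes name FastQC, HISAT2, DESeq2 and hg19, without versions. The counting tool, the annotation and the use of strand are not given in the sources used here. In the files 27 gene names are dates and 2 are duplicated.

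The members and lists were chosen with earlier results of these data known. Counts were tested with edgeR 4.0.16 (limma 3.58.1, R 4.3.3) by the quasi-likelihood test with TMM, edgeR's low-count filter and Benjamini-Hochberg adjustment over the 16222 genes tested, with a threshold of 0.05. Standard errors come from log2 CPM with a prior count of 2. Shares of TPM were compared by an exact two-sided permutation test over libraries. Replicate pairs differed by more than sampling noise (chi-square per degree of freedom from 3.86 to 11.3). Totals of 21888530 to 25711353 counts limit the precision of low genes, and the limit of 3 counts for a count of 0 covers counting error only. The edgeR test was tested on simulated data.

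Alternatives were RLE and upper quartile scaling, DESeq2 1.42.0, library size alone, testing all genes with a count, a minimum of 10 counts in all libraries, a replicate block, leaving out each library, a fold threshold and counts not divided by length. Named genes were all 10 members, genes overlapping them, the 3 largest called rises and falls of each list, the 3 nearest profiles of HIF1A and EGLN3, and DPYSL2. AHR, ARNTL, AK4, GYS1 and EGLN1P1 were added after their values were seen. A gene that meets this rule is not reported here. Promoter windows are from RefSeq (GRCh38.p14), and the primers, from the study's supplement, were placed on GENCODE release 29 (GRCh38).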

Additional observations from a re-analysis of the deposited data

How the results depend on the processing

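The 9 tested members kept their direction under DESeq2, RLE, upper quartile scaling, both low-count filters and when each library was left out. With library size alone ARNT was at -0.0004, ELOB at -0.0864, and the lower calls grew: 2171 genes were higher and 8449 lower, against 4574 and 4875 with TMM. The added fold threshold left 831 higher and 1437 lower genes, and 2 higher and 0 lower members. Over the libraries left out, 3 to 4 members were lower, and ARNT2 ranged from -0.43 to -0.13.

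Under library size alone the VHL ligase list had 0 higher and 5 lower genes, the lower counts were 10 for the stability factors, 8 for the coactivators, 12 for PI3K-AKT-mTOR (with 3 higher), 5 for bHLH-PAS and 2 for the HIF targets. Under the fold threshold the higher and lower counts were 0 and 0 for the VHL ligase, 1 and 1 for the stability factors, 1 and 0 for the coactivators, 0 and 0 for PI3K-AKT-mTOR and 0 lower for bHLH-PAS. RLE gave 2 higher VHL ligase genes. For bHLH-PAS, 1 gene was higher under RLE and 1 without the low-count filter, which left 1 higher VHL ligase gene. Leaving out libraries gave 1 to 2 higher VHL ligase genes and 0 to 1 higher bHLH-PAS genes. Without untreated replicate 2 the adjusted p of SIM2 was 0.0623 (edgeR). With library size alone the median log2 fold change of all genes was -0.34, against -0.03 under TMM. The part of this shift in the lower counts was not tested.

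Same-numbered libraries did not deviate together (correlations across genes of -0.02, 0.0038 and -0.03), so the replicate numbers were not taken as a pairing. With the replicate block 4456 genes were higher and 4774 lower, 5 members were higher and 4 lower, and 1 bHLH-PAS gene was higher. Blocked within pairs, the shares of EGLN3, HIF1A and ARNT2 differed by 16.1, -10.2 and -8.59 percentage points, each with an exact p of 0.25, the smallest that 3 pairs allow. With counts not divided by length, the log2 ratio of prolyl hydroxylases to alpha subunits differed by 0.0054. Depth limits HIF3A, at 4 counts or fewer per library.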
